A study of Mus musculus with 11 samples.

Results

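Collagens are extracellular proteins whose alpha chains wind around each other into a helix, and each chain is the product of its own gene. Fibrillar collagens assemble into the fibres of connective tissue and are a main secreted product of fibroblasts, whereas type IV collagen forms the sheet-like network of basement membranes, the matrix on which epithelia rest. In the early embryo, type IV collagen is laid down in large amounts by the primitive and parietal endoderm. The remaining types include collagens that sit on fibre surfaces, beaded filaments, short-chain networks, anchoring fibrils and transmembrane forms.

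The collagen chain genes were taken as every probe whose annotated symbol reads Col, digits, a, digits. This gave 84 of the 46627 probes with an ID, standing for 39 genes: 11 fibrillar chains (types I, II, III, V, XI, XXIV and XXVII), 6 basement-membrane chains (type IV) and 22 further chains. RefSeq lists 44 mouse collagen genes, and Col12a1, Col20a1, Col22a1, Col6a3 and Col6a5 had no probe here.

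Total RNA of mouse cells was hybridized to Illumina bead arrays, in a study of how CC chemokine ligand 2 and LIF (leukemia inhibitory factor) bear on pluripotency. All groups were of strain C57BL/6. The iPSC (induced pluripotent stem cells) on feeder cells (3 arrays) were grown on SNL76/7 cells, a fibroblast feeder line, stopped from dividing with mitomycin C, and were separated from the feeder layer mechanically. Feeder-free iPSC (3 arrays) grew without such cells in medium with LIF at 1000 units per ml and with 15% serum; these amounts are given for the feeder-free medium only. The feeder cells (2 arrays), labelled MSTO, are described as embryonic fibroblasts that express LIF; whether MSTO and SNL76/7 name the same cells is not stated. A further 3 samples were computed in silico from 92% feeder-free signal and 8% feeder signal, and thus share their arrays with the other groups. Replicates are numbered but not said to be separate cultures, so p-values measure only the spread between these samples, which may be technical.

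Detected probes numbered 17630 to 19043 per on-feeder array, 17307 to 18759 per feeder-free array and 13581 to 14574 per feeder-cell array. Signals of each feeder-free array were computed back from the mixture columns, because the deposited feeder-free columns are averages over arrays with 8% or 9% of feeder signal added. Set against feeder cells, feeder-free iPSC had all 7 tested pluripotency genes higher and 10 of 11 tested fibroblast markers lower. Of all genes tested, 40.8% were higher and 41.1% lower. The exception among the fibroblast markers was Meox1, which was detected on neither feeder array. Levels are given as log2 normalized intensity, and differences in level between probes are not read as differences in RNA amount. The sums over collagen classes and markers add signals across probes, so brighter probes weigh more in them.

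Of the 84 collagen probes, 24 were detected on every array of at least 1 group and 55 on no array. This left 19 genes to test, 5 fibrillar, 3 basement-membrane and 11 others, which are thus the chains bright enough to measure and not all collagens. Col5a2 passed only through the feeder cells, Col27a1 only through the feeder-free iPSC and Col26a1 only through the on-feeder iPSC. Among the 20 genes not tested were Col1a2 and Col3a1, partners of Col1a1 in the fibres of skin and tendon, whose 1 and 2 probes were detected on no array, the fibroblast feeder arrays included. Col4a3, Col4a4 and Col4a6 were likewise detected on no array with 1, 2 and 4 probes, so type IV collagen was read from Col4a1, Col4a2 and Col4a5. Col10a1, Col11a2 and Col9a2 were detected on at most 3 arrays, and the other 12 (Col11a1, Col13a1, Col15a1, Col19a1, Col23a1, Col24a1, Col25a1, Col5a3, Col6a4, Col6a6, Col8a2 and Col9a1) on none.

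Growth on feeder cells was set against feeder-free growth to ask which chains differ between the cultures. With limma (adjusted p below 0.05 over all genes tested), 6 collagen genes were higher in on-feeder iPSC and 2 (Col4a1 and Col27a1) were lower, against 10.0% higher and 8.46% lower among all 10058 genes. The median log2 fold change of the tested collagens was 0.12, and that of all genes -0.02. Against the in silico mixture, which asks whether an 8% admixture of feeder signal gives the same levels, 3 were higher and 2 lower, beside 5.68% higher and 5.32% lower among all genes. Each mixture holds the same feeder mean, so spread between the feeder arrays does not enter this comparison. Its standard errors and p-values can therefore be too small. Feeder-free iPSC had 7 chains higher and 12 lower than feeder cells, beside 40.8% and 41.1% of all genes, and on-feeder iPSC likewise 7 higher and 12 lower, beside 39.1% and 41.7%. Most genes differ in those last comparisons, so these counts stand at a background of 81.9% and 80.8% called. Arrays did not overlap for 7 higher and 3 lower chains between the iPSC cultures (35.8% of all genes), for 5 and 3 against the mixture (33.8%), and for all tested chains in both comparisons with feeder cells (87.9% of all genes for feeder-free and 86.9% for on-feeder iPSC). Comparisons here share arrays, and each one's own values are given side by side. When each array was scaled by its median instead of by quantiles, on-feeder iPSC had 6 chains higher and 0 lower than feeder-free iPSC.

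**Figure D1:**
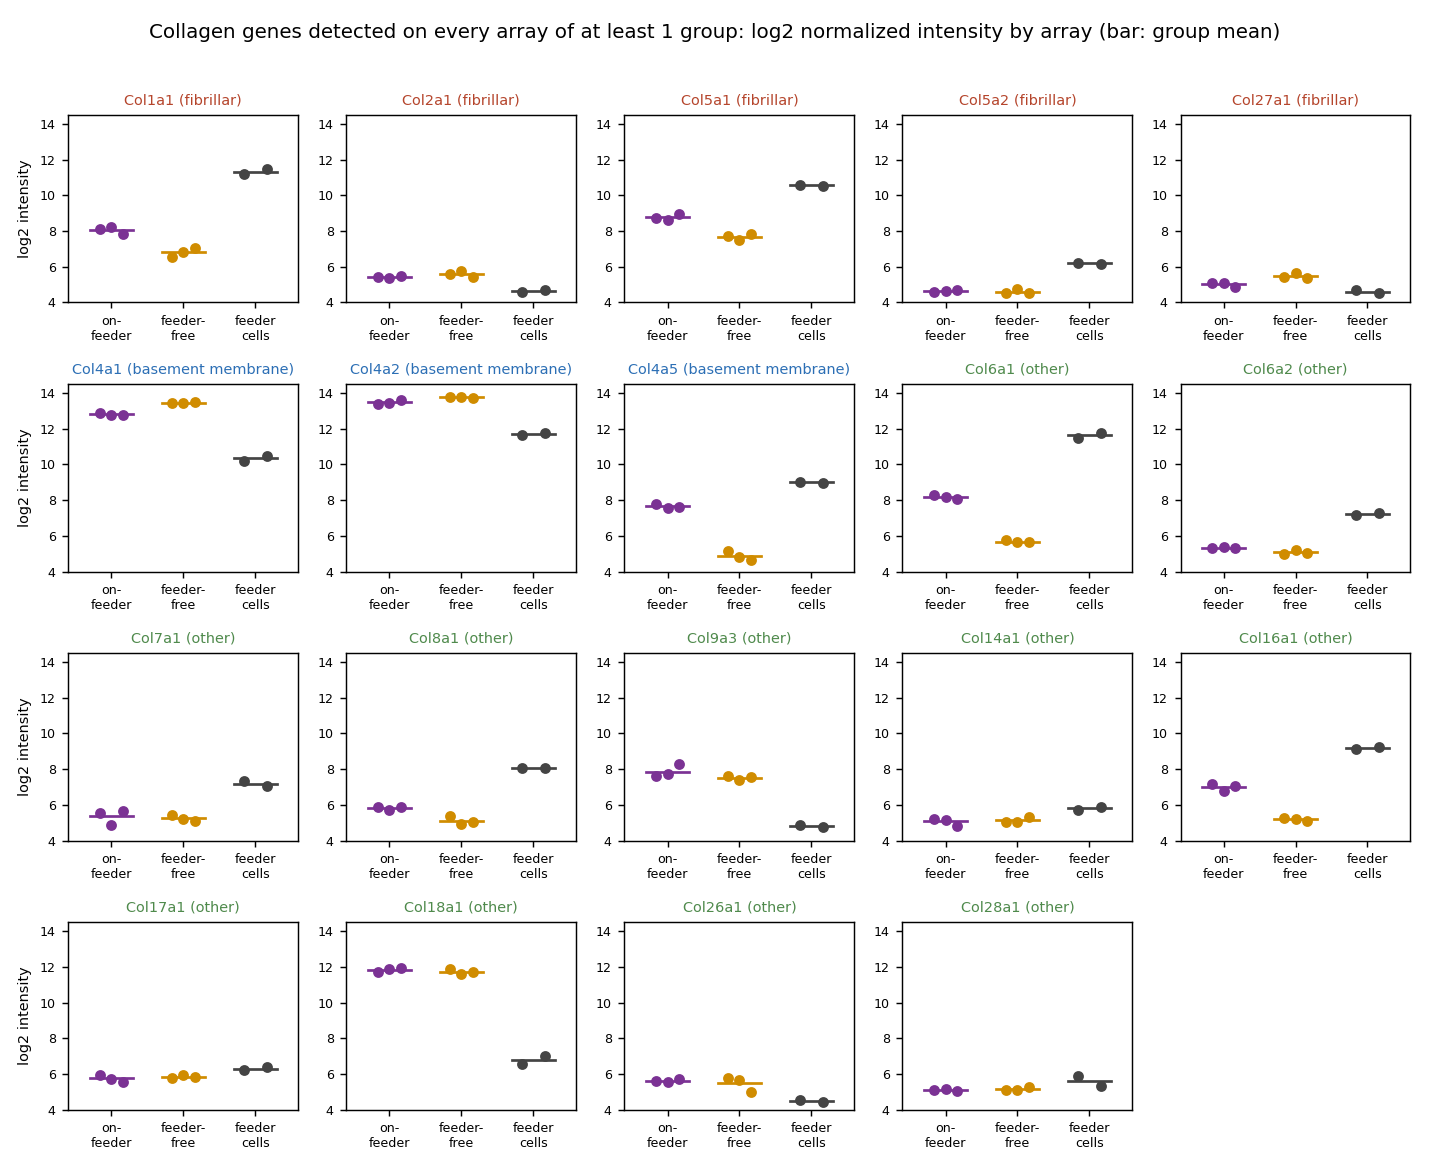
Log2 normalized intensity (y axis) of the 19 tested collagen genes on each on-feeder, feeder-free and feeder-cell array (points), with a bar at each group mean. Col1a1, Col5a1, Col4a5, Col6a1 and Col16a1 stand between their feeder-free and feeder-cell levels in on-feeder iPSC, while Col4a1, Col4a2 and Col18a1 are brightest in iPSC.

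Among the type IV chains, Col4a5 was higher and Col4a1 lower in on-feeder than in feeder-free iPSC. The type IV genes lie in head-to-head pairs, and the windows around the starts of Col4a1 and Col4a2, chains that assemble together, are shown because those genes start 21 bases apart on opposite strands and 78 bases are common to both windows. At these starts the first bases of Col4a1 and Col4a2 overlap, so no gap lies between them. Each window runs from 250 bases before the start to 50 after it, 5′ to 3′ on the gene's own strand, from RefSeq on GRCm38.p6. Col4a1 is chr8:11312777-11313076 on the minus strand and Col4a2 is chr8:11312555-11312854 on the plus strand, with capitals marking the shared bases.
Col4a1: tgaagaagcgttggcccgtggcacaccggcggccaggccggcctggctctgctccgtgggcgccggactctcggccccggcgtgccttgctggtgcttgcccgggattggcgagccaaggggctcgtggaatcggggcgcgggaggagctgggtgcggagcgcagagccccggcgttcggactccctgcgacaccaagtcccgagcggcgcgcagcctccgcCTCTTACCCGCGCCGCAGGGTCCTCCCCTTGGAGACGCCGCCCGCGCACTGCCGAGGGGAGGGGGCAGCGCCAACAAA
Col4a2: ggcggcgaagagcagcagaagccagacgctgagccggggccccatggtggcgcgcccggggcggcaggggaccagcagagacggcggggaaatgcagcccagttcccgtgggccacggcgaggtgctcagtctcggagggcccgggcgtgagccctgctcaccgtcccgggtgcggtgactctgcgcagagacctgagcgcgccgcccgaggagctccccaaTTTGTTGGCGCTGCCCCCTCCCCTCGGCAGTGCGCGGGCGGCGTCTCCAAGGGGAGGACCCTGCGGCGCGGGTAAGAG
The Col4a5 window, chrX:141475169-141475468 on the plus strand, is shown as that of the type IV chain that was higher. Capitals mark GGGCGG or CCAAT on either strand.
Col4a5: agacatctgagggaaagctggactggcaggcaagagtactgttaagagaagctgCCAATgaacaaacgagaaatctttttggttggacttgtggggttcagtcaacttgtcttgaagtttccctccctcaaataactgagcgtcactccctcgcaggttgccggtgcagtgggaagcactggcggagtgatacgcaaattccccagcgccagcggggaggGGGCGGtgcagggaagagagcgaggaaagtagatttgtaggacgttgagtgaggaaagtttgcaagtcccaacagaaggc
The start of Col4a6 lies 1343 bases from that of Col4a5 on the opposite strand, and their windows share no bases.

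The GC box core GGGCGG, the box named CCAAT and the core promoter element TATAAA were searched on both strands of these windows, and the letters of none of them contain those of another. The Col4a1 window held 1 GGGCGG and 1 CCAAT, that of Col4a2 held 3 and 1, and that of Col4a5 held 1 and 1, with no TATAAA in any of them. GC content was 74.0% for Col4a1, 73.7% for Col4a2 and 52.7% for Col4a5, beside a median of 52.7% over all 32851 windows. RefSeq windows were at hand for 13 of the tested collagen genes, 15 windows in all. GGGCGG was in 11 of the 15 against 35.7% of all windows, CCAAT in 7 against 37.4%, and TATAAA in 1, that of Col17a1, against 13.6%. The 15 windows are not all separate. Those of Col6a2 overlap each other, and the GGGCGG of Col4a1 lies in the bases shared with Col4a2 and is counted for both. These are matches of letters and show neither a bound site nor a cause.

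Col4a5, a chain of the basement membranes of kidney and skin, read 7.79, 7.57 and 7.64 in on-feeder iPSC, 5.15, 4.80 and 4.64 in feeder-free iPSC, and 9.02 and 8.95 in feeder cells. The groups did not overlap, and 1 of the 3 feeder-free arrays detected the probe. On feeder cells the level was 6.99-fold that of feeder-free growth (limma log2 fold change 2.81, SE 0.13, adjusted p = 2.62e-08), a size that rests on feeder-free levels near the detection floor. In bulk RNA, fewer cells of a type and less RNA per cell cannot be told apart, here and in every comparison that follows.

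The second Col4a5 probe ran the same way, at 7.06, 7.21 and 6.87 in on-feeder iPSC, 5.29, 5.08 and 4.80 in feeder-free iPSC, and 9.35 and 9.40 in feeder cells. It was detected on 2 of the 3 feeder-free arrays and gave a smaller log2 fold change of 1.99 (SE 0.14, adjusted p = 8.73e-07 over all probes kept). Against the mixture Col4a5 was 3.55-fold higher, with log2 levels of 7.92, 7.71 and 7.78 on the on-feeder arrays and 5.99, 5.93 and 6.01 in the mixtures (log2 fold change 1.83, SE 0.10, adjusted p = 3.56e-06), and the second probe read 0.89 (adjusted p = 0.00112). Both probes stood above the mixture, the second by less. The same feeder mean is in each mixture, and the SD of the first probe was 0.04 there against 0.26 in feeder-free iPSC. Relative to feeder cells, the log2 fold change was -1.32 in on-feeder iPSC (SE 0.14, adjusted p = 2.95e-06) and -4.13 in feeder-free iPSC (SE 0.14, adjusted p = 5.98e-11).

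Col4a1, which with Col4a2 forms the most widespread type IV network, went the other way. Its levels were 12.88, 12.78 and 12.78 in on-feeder iPSC, 13.41, 13.41 and 13.48 in feeder-free iPSC, and 10.20 and 10.46 in feeder cells. Every on-feeder array was below every feeder-free array, and both kinds of iPSC were well above feeder cells. The log2 fold change was -0.62 (SE 0.10, adjusted p = 0.00123) against feeder-free iPSC and -0.54 (SE 0.09, adjusted p = 0.00531) against the mixture. These calls ended under median scaling, where the change against feeder-free iPSC was the same size at -0.62 (adjusted p = 0.103) and that against the mixture -0.51 (adjusted p = 0.473). Relative to feeder cells, Col4a1 was 5.59-fold higher in on-feeder iPSC and 8.56-fold higher in feeder-free iPSC (adjusted p = 8.61e-10 and 7.80e-11).

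Col4a2 read 13.40, 13.45 and 13.59 in on-feeder iPSC, 13.78, 13.75 and 13.72 in feeder-free iPSC, and 11.63 and 11.73 in feeder cells. The on-feeder and feeder-free arrays did not overlap, but the log2 fold change of -0.27 (SE 0.09) missed the threshold (adjusted p = 0.0682). It passed without background correction (adjusted p = 0.0170), with an offset of 50 (adjusted p = 0.0277), with no filter on dim probes (adjusted p = 0.0493) and under scaling by the median of probes detected on every array (adjusted p = 0.0293). Whether Col4a1 and Col4a2 differed from each other in their response was not tested. Over feeder cells Col4a2 was 3.49-fold higher in on-feeder iPSC and 4.21-fold higher in feeder-free iPSC (adjusted p = 9.25e-09 and 1.89e-09).

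Some markers of primitive and parietal endoderm were lower along with Col4a1. Of 14 such markers, 11 were tested, and 6 were lower and 1 higher in on-feeder than in feeder-free iPSC, beside 8.46% and 10.0% of all genes. The transcription factor Gata4 had a log2 fold change of -1.27 (adjusted p = 0.000426), follistatin (Fst) -0.89, amnionless (Amn) -0.67 and Foxa2 -0.66, while Pdgfra stood at 0.63 (adjusted p = 0.00662); the other 4 did not pass. Median scaling left 2 lower and 0 higher, Gata4 and Fst. Their summed signal was 144% to 166% of the feeder-cell mean in on-feeder iPSC and 182% to 197% in feeder-free iPSC. Gata6, Sox17, Sox7 and Foxa2 were detected on every iPSC array and on neither feeder array. The other tested markers were seen in feeder cells too: Dab2, Amn, Fst, Plat, Pdgfra and Hnf4a on both feeder arrays and Gata4 on 1. The part of these cells or genes in the Col4a1 difference was not tested.

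Of the 5 fibrillar chains, Col1a1 and Col5a1 were higher and Col27a1 lower in on-feeder than in feeder-free iPSC, and Col2a1 and Col5a2 did not pass. Col1a1, the main chain of type I collagen, read 8.12, 8.25 and 7.83 in on-feeder iPSC, 6.56, 6.82 and 7.06 in feeder-free iPSC, and 11.17 and 11.47 in feeder cells. No group overlapped another, and on-feeder iPSC stood nearer to feeder-free iPSC than to feeder cells. The gene was 2.38-fold higher on feeder cells than without them (log2 fold change 1.25, SE 0.15, adjusted p = 0.000110). Against the mixture it did not pass, at -0.17 (SE 0.14, adjusted p = 0.470), with overlapping levels of 8.23, 8.36 and 7.95 on the on-feeder arrays and 8.09, 8.38 and 8.58 in the mixtures. At larger assumed feeder shares it passed as lower than the mixture, with -0.56 at 12% (adjusted p = 0.0289) and -0.86 at 16% (adjusted p = 0.00362).

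Col5a1, a chain of the type V collagen that helps start fibres, read 8.72, 8.61 and 8.94 in on-feeder iPSC, 7.71, 7.49 and 7.85 in feeder-free iPSC, and 10.59 and 10.51 in feeder cells. Again the groups did not overlap. On feeder cells it was 2.11-fold higher, a log2 fold change of 1.08 (SE 0.12, adjusted p = 6.74e-05), and 1.41-fold above the mixture (0.49, SE 0.12, adjusted p = 0.0261). The call against the mixture was lost without on-feeder array 1 (adjusted p = 0.0657) or 3 (0.0833), without feeder-free array 1 (0.0667) or 2 (0.104), and at assumed feeder shares of 12% (0.122) and 16% (0.564), as well as under median scaling (0.593) and scaling by the median of detected probes (0.0543), and was kept in 11 of 19 alternative settings. Its type V partner Col5a2 was detected on no iPSC array and read 6.23 and 6.16 in feeder cells. Against feeder cells it was lower by at least 2.35-fold in on-feeder iPSC and by at least 2.30-fold in feeder-free iPSC (adjusted p = 5.22e-08 and 3.01e-08). It was kept for testing through the feeder cells alone, where it is high, so that choice favours these calls.

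Col27a1, a fibrillar chain of cartilage, read 5.08, 5.09 and 4.88 in on-feeder iPSC (2 of 3 arrays detected it), 5.45, 5.67 and 5.39 in feeder-free iPSC, and was detected on neither feeder-cell array. The log2 fold change against feeder-free iPSC was -0.48 (SE 0.11, adjusted p = 0.0102) and that against the mixture also -0.48 (SE 0.12, adjusted p = 0.0293). These arrays did not overlap, but the levels lay close to the detection floor, and the gene was kept for testing through the feeder-free iPSC alone, which favours a call of lower. The call against feeder-free iPSC was lost without on-feeder array 3 (adjusted p = 0.0503), without feeder-free array 2 (0.0531), without background correction (0.0529), under median scaling (0.141) and under scaling by the median of detected probes (0.0523). The call against the mixture was kept in 9 of 18 alternative settings.

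Col2a1, the cartilage fibre chain, read 5.41, 5.35 and 5.46 in on-feeder iPSC and 5.57, 5.77 and 5.42 in feeder-free iPSC. These overlapped (log2 fold change -0.18, SE 0.11, adjusted p = 0.266), and neither feeder-cell array detected it. Feeder-free iPSC were at least 1.09-fold above feeder cells in Col2a1 and at least 1.02-fold in Col27a1, bounds near 1 because the floor of the feeder arrays is close to these levels. For Col27a1, being kept through the feeder-free iPSC alone also favours a call of higher there. Chondrocyte markers did not move one way: the cartilage regulator Sox9, bright in feeder cells, was higher on feeder cells by a log2 fold change of 2.44 (adjusted p = 2.19e-08) and aggrecan (Acan) was lower (-0.40, adjusted p = 0.0119). Matn1 and Comp were not detected on every array of any group and so were not tested. None of 4 osteoblast markers could be tested.

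**Figure D2:**
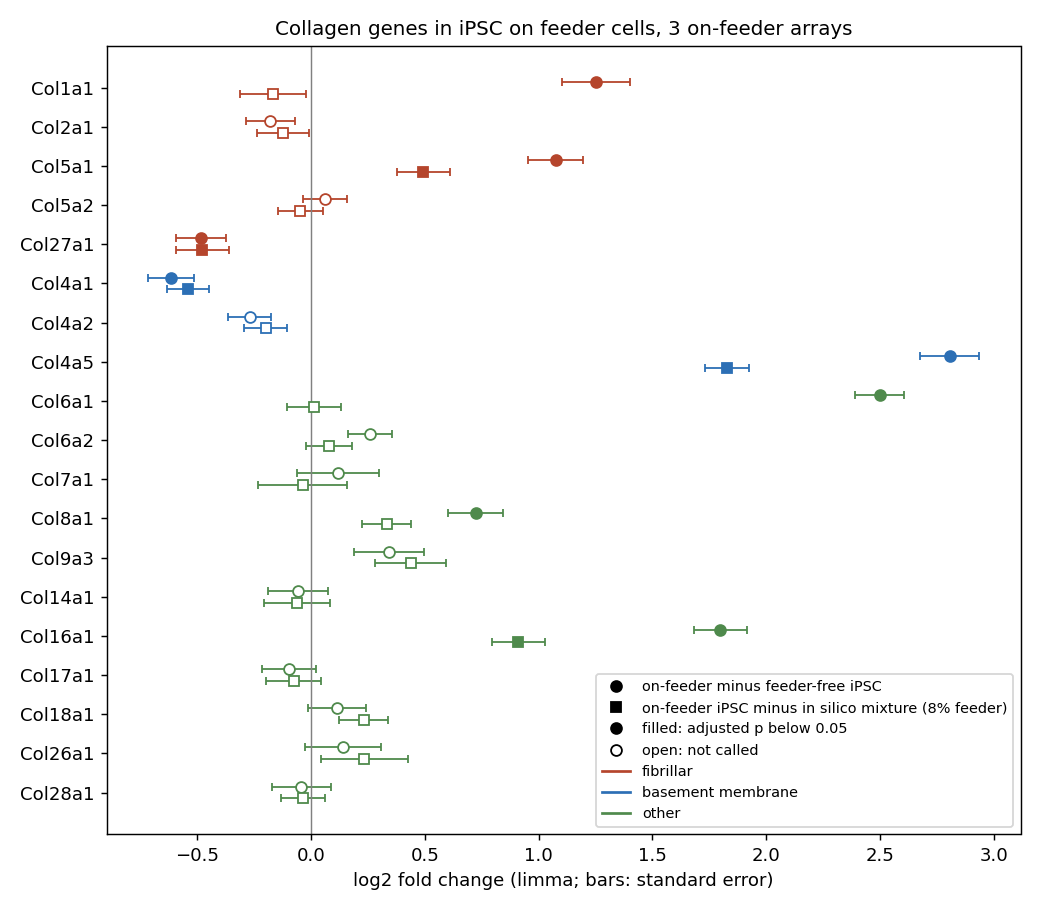
Log2 fold change (x axis, with standard error bars) of each tested collagen gene in on-feeder iPSC against feeder-free iPSC (circles) and against the in silico mixture (squares), with 3 on-feeder arrays, 3 feeder-free arrays and 3 mixtures computed from those feeder-free arrays and the mean of the feeder-cell arrays, filled where the adjusted p was below 0.05. Col4a5 and Col16a1 lie to the right in both comparisons, Col4a1 and Col27a1 to the left in both, and Col1a1 and Col6a1 near 0 against the mixture.

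Among the other chains, Col6a1 and Col16a1 had the clearest rises. Col6a1, a chain of the type VI beaded filaments of connective tissue, read 8.28, 8.17 and 8.07 in on-feeder iPSC, 5.76, 5.63 and 5.65 in feeder-free iPSC, and 11.48 and 11.77 in feeder cells. The groups were far apart, and the level was 5.65-fold higher on feeder cells than without them (log2 fold change 2.50, SE 0.11, adjusted p = 2.05e-08). A second probe, detected on no feeder-free array, was at least 4.63-fold higher (adjusted p = 1.86e-08 over all probes kept). Against the mixture the change was 0.01 (SE 0.12, adjusted p = 0.959), with levels of 8.39, 8.29 and 8.19 on the on-feeder arrays, inside the range of 8.07, 8.29 and 8.47 in the mixtures. This value turns with the assumed feeder share: it was 0.77 at 4% (adjusted p = 0.00167), -0.48 at 12% (adjusted p = 0.0267) and -0.85 at 16% (adjusted p = 0.00143).

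Col6a2, which assembles with Col6a1, averaged 5.34 ± 0.06 in on-feeder iPSC and 5.09 ± 0.11 in feeder-free iPSC (SD, n = 3 each), against 7.18 and 7.29 on the feeder-cell arrays. Every on-feeder array was above every feeder-free array, yet the log2 fold change of 0.26 (SE 0.10) did not pass (adjusted p = 0.0881). Relative to feeder cells, Col6a1 was lower by 10.9-fold in on-feeder iPSC and by 61.5-fold in feeder-free iPSC, and Col6a2 was 3.70-fold and 4.43-fold lower (adjusted p from 1.12e-12 to 8.38e-09).

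Col16a1, a fibril-associated chain, read 7.15, 6.77 and 7.07 in on-feeder iPSC, 5.28, 5.21 and 5.10 in feeder-free iPSC, and 9.11 and 9.26 in feeder cells, with no overlap. It was 3.48-fold higher than without feeder cells, a log2 fold change of 1.80 (SE 0.12, adjusted p = 4.98e-07), and 1.88-fold above the mixture (0.91, SE 0.12, adjusted p = 0.000936). The call against the mixture ended under median scaling (0.95, adjusted p = 0.0586) and at a 16% share (0.32, adjusted p = 0.0902). Col8a1, a short-chain network collagen of vessel walls, read 5.88, 5.71 and 5.88 in on-feeder iPSC, 5.36, 4.91 and 5.04 in feeder-free iPSC (1 of 3 arrays detected it), and 8.09 and 8.05 in feeder cells. The on-feeder arrays were all higher, by 1.65-fold (log2 fold change 0.72, SE 0.12, adjusted p = 0.00145), while the difference from the mixture did not pass (0.33, SE 0.11, adjusted p = 0.0739). It passed without on-feeder array 2 (adjusted p = 0.0440) and at a 4% share (adjusted p = 0.0122).

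Col18a1 and Col9a3 were higher in both iPSC cultures than in feeder cells and did not pass between the cultures. Col18a1, the basement-membrane-associated chain from which endostatin is cut, read 11.72, 11.86 and 11.92 in on-feeder iPSC, 11.86, 11.61 and 11.69 in feeder-free iPSC, and 6.57 and 7.03 in feeder cells. Both iPSC cultures overlapped (log2 fold change 0.12, SE 0.13, adjusted p = 0.566) and lay far above feeder cells, by 32.8-fold on feeder and 30.2-fold without (adjusted p = 1.54e-11 and 1.29e-11). A second, dimmer Col18a1 probe was detected on every iPSC array and on neither feeder-cell array. It gave smaller log2 fold changes against feeder cells, 1.48 on feeder and 1.72 without, and -0.24 between the cultures (adjusted p = 0.413 over all probes kept). Col9a3, a fibril-associated chain of cartilage, read 7.60, 7.72 and 8.28 in on-feeder iPSC and 7.63, 7.41 and 7.54 in feeder-free iPSC, and was not well above background on either feeder-cell array. On-feeder array 3 stood above the rest, and the cultures overlapped (0.34, SE 0.15, adjusted p = 0.145). Col9a3 was at least 5.28-fold higher in on-feeder iPSC and at least 4.17-fold higher in feeder-free iPSC, relative to feeder cells (adjusted p = 6.61e-09 and 1.55e-08).

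The remaining chains were dim. Col7a1, the anchoring-fibril chain of skin, was lower than in feeder cells by 3.57-fold in on-feeder iPSC and by 3.87-fold in feeder-free iPSC (adjusted p = 2.97e-06 and 1.52e-06), and the fibril-associated chain Col14a1 was 1.66-fold and 1.60-fold lower. Col28a1 was detected on 1 of the 2 feeder-cell arrays, which read 5.91 and 5.36, and was 1.44-fold and 1.39-fold lower in on-feeder and feeder-free iPSC; both calls were lost without feeder array 1 (adjusted p = 0.121 and 0.191). The transmembrane chain Col17a1 was lower than in feeder cells by log2 fold changes of -0.55 and -0.45, which turned to 0.14 and 0.20 under median scaling, and a second probe read 0.18 and 0.20 against feeder cells. Calls for Col14a1 and Col28a1 were also lost under median scaling. Col26a1, kept for testing through the on-feeder iPSC alone and not detected on the feeder-cell arrays, was at least 1.11-fold above them in on-feeder iPSC and at least 1.01-fold in feeder-free iPSC (adjusted p = 0.000102 and 0.000292). Its choice through the on-feeder iPSC favours the call of higher in that group. Between the iPSC cultures, these 5 chains had log2 fold changes from -0.10 (Col17a1) to 0.14 (Col26a1), with adjusted p of 0.598 or more.

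For chains that rose on feeder cells, the feeder share expresses the rise as a percent of the feeder-cell signal: on-feeder minus feeder-free over feeder minus feeder-free. The share was 6.35% for Col1a1 and 7.66% for Col6a1, against 9.48% for Col8a1, 16.8% for Col16a1, 17.6% for Col5a1 and 36.4% for Col4a5. Over 109 feeder-specific genes, none of them a collagen, the median share was 5.64% with quartiles of 2.20% and 8.91%. Col1a1 and Col6a1 thus lay within those quartiles, and Col8a1, Col16a1, Col5a1 and Col4a5 lay above them. Col8a1 did so narrowly, with 10.4%, 7.58% and 10.4% on the single arrays, of which array 2 lay inside the quartiles. By this probe Col4a5 had shares of 40.2%, 33.5% and 35.6% on the 3 on-feeder arrays. Its second probe gave 15.9%, 18.2% and 13.2%, and 15.7% for the mean signal, beside 13.2% to 19.4% on the single arrays for Col16a1. The Col4a5 share thus differs by over 2 times between probes, while the second Col6a1 probe gave 7.08%. All shares assume that the feeder layer under the iPSC was like the cells hybridized alone.

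**Figure D3:**
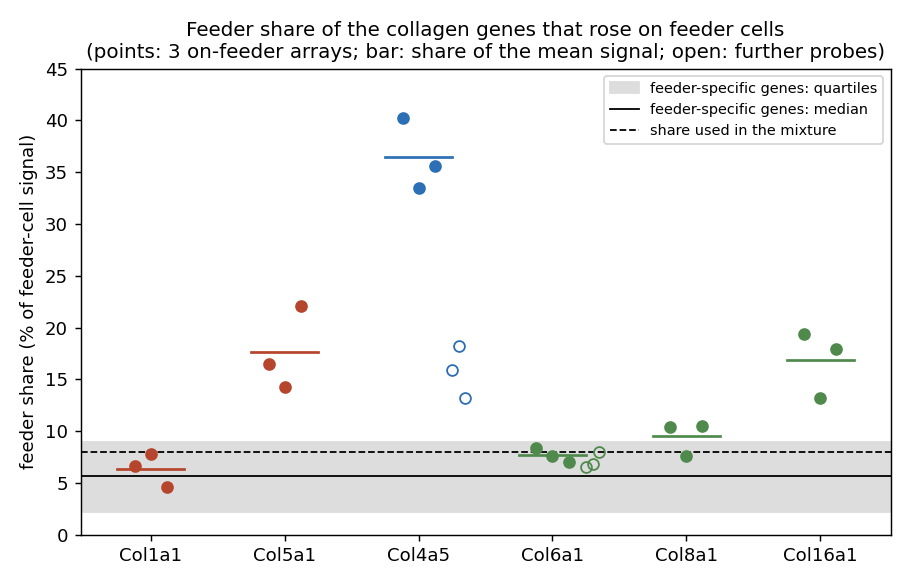
Feeder share in percent of feeder-cell signal (y axis) of the 6 collagen genes that rose on feeder cells, on each on-feeder array (filled points) and for the mean signal (bar), with further probes of Col4a5 and Col6a1 as open points and the median (solid line, 5.64%) and quartiles (grey) of 109 feeder-specific genes and the 8% used in the mixture (dashed line). The brightest Col4a5 probe gives 36.4% and its other probe 15.7%, near Col16a1 and Col5a1, and Col1a1 and Col6a1 lie inside the grey band.

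Summed over the tested chains of a class, the signal kept these patterns. The fibrillar sum was 19.0%, 19.0% and 19.5% of the feeder-cell mean in on-feeder iPSC and 9.96%, 10.1% and 11.2% in feeder-free iPSC. The basement-membrane sum was 366%, 363% and 385% in on-feeder iPSC and 490%, 486% and 492% in feeder-free iPSC. The groups did not overlap in either class, and the bright probes of Col1a1, Col5a1, Col4a1 and Col4a2 make up most of these sums. For the other chains the sums were 93.3%, 99.0% and 105% in on-feeder iPSC and 92.0%, 78.5% and 82.1% in feeder-free iPSC, with the lowest on-feeder array just above the highest feeder-free one. Most of this sum is Col18a1 in iPSC but Col6a1 in feeder cells. A sum near that of feeder cells thus does not mean that the single chains were at feeder-cell levels. Of 11 tested fibroblast markers, 7 were higher and 0 lower in on-feeder than in feeder-free iPSC, beside 10.0% and 8.46% of all genes. Their summed signal was 28.6% to 30.6% of the feeder-cell mean in on-feeder iPSC and 12.9% to 13.3% in feeder-free iPSC. Of these, S100a4 stood at a log2 fold change of 3.62, Medag at 2.84, Lox at 2.54 and Loxl1 at 1.84. Against the mixture 2 were higher, S100a4 at 2.15 and vimentin (Vim) at 0.74, and 2 lower, Lox at -0.66 and Loxl1 at -0.50. Of all genes, 5.68% were higher and 5.32% lower than the mixture. The part of these markers in the collagen differences was not tested.

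**Figure D4:**
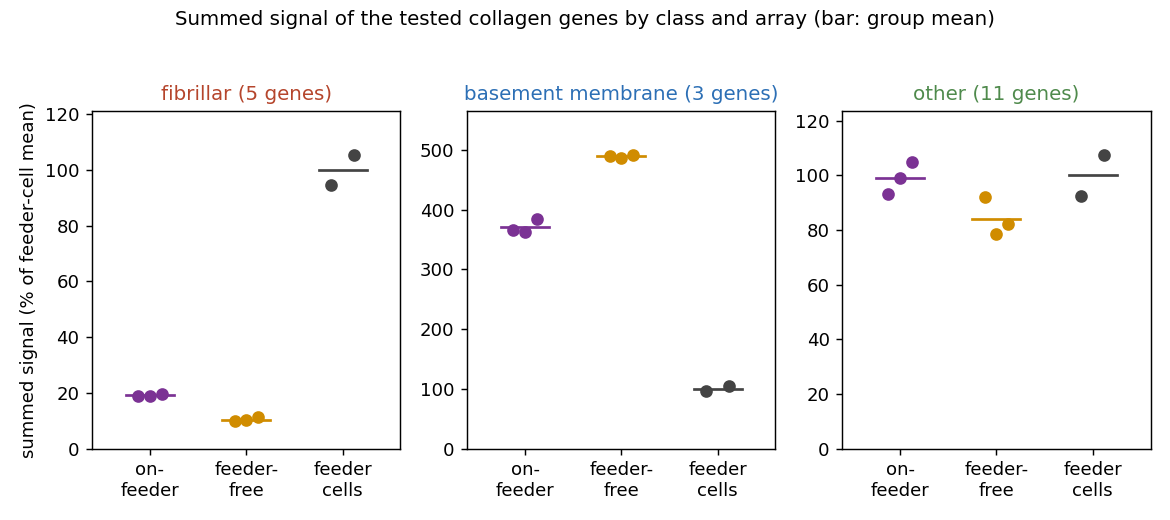
Summed signal of the tested collagen genes in percent of the feeder-cell mean (y axis) on each on-feeder, feeder-free and feeder-cell array (points), by class, with a bar at each group mean. In on-feeder iPSC the fibrillar sum is above and the basement-membrane sum below that of feeder-free iPSC, without overlap.

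Collagen chains are modified, folded and exported with the help of enzymes and chaperones in the endoplasmic reticulum. Of 24 such biosynthesis genes, 20 were tested, and 1 was higher and 8 lower in on-feeder than in feeder-free iPSC, beside 10.0% and 8.46% of all genes. The median log2 fold change was -0.24 on this list, against -0.02 for all genes. The export factor Mia3 (TANGO1) stood at -0.58 (adjusted p = 0.00245), the prolyl 3-hydroxylase P3h2 at -0.48, the lysyl hydroxylase Plod2 at -0.47 and the prolyl 3-hydroxylase P3h1 at -0.45. The remaining falls were those of P3h4, Plod1, Colgalt1 and Serpinh1, the collagen chaperone HSP47, at -0.43 to -0.36, and P3h3 alone was higher, at 0.60 (adjusted p = 0.000793). Serpinh1 read 12.56, 12.47 and 12.53 in on-feeder iPSC, 12.88, 12.85 and 12.91 in feeder-free iPSC, and 13.43 and 13.59 in feeder cells, without overlap. Against the mixture 0 were higher and 6 lower, beside 5.68% and 5.32% of all genes. The lower ones included Mia3 at -0.58 and Serpinh1 at -0.42 (adjusted p = 0.0160). The 6 became 1 without feeder-free array 2 or 3, 2 without on-feeder array 1 or 3 and 3 without feeder-free array 1. All of the calls against feeder-free iPSC on this list were lost under median scaling, and leaving out feeder-free array 2 left 4 lower and array 3 left 5.

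Extracellular processing and sensing of collagen were read from short lists. Of 11 genes that trim procollagen or aid it, 5 were tested: the procollagen C-proteinase enhancer Pcolce was higher in on-feeder than in feeder-free iPSC (0.62, adjusted p = 0.00245) and its relative Pcolce2 lower (-0.57, adjusted p = 0.00402), both calls that median scaling ended. Among 12 receptors and uptake genes, 5 were tested, and 4 were higher and 0 lower, beside 10.0% and 8.46% of all genes. Cd44, a matrix receptor, read 10.17, 10.23 and 10.08 in on-feeder iPSC, 7.00, 7.18 and 6.95 in feeder-free iPSC, and 11.35 and 11.31 in feeder cells. It stood at a log2 fold change of 3.12 against feeder-free iPSC (adjusted p = 2.43e-09) and 1.75 against the mixture (adjusted p = 5.05e-06). The collagen uptake receptor Mrc2 stood at 1.10, the integrin chain Itgb1 at 0.43, and the discoidin receptor Ddr2, detected on no feeder-free array, was at least 1.05-fold higher (adjusted p = 0.0487), a call kept in 3 of 17 alternative settings. Of these, Cd44 passed against the mixture. Median scaling, scaling by the median of detected probes, or leaving out on-feeder array 1 or feeder-free array 2 left 2 of the 4 calls.

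Partners of type IV collagen in basement membranes did not move as a group. Of 19, 14 were tested, with 2 higher and 2 lower in on-feeder than in feeder-free iPSC. The background, also for the marker counts below, was 10.0% higher and 8.46% lower among all genes. The linker nidogen (Nid1) stood at 0.51 (adjusted p = 0.0122) and fibulin (Fbln1) at 0.50 (adjusted p = 0.00630), while the laminin chains Lamb3 and Lama5 stood at -0.68 and -0.67 (adjusted p = 0.00112 and 0.00128). Probes of Fbln1 disagree: without feeder array 1 another probe was the brightest, and the change was then -0.13 (adjusted p = 0.407). Median scaling left 0 higher and 1 lower on this list. Laminin Lamc1, a bright iPSC partner, overlapped between the cultures, at 11.81, 11.91 and 12.04 in on-feeder iPSC and 11.82, 12.02 and 11.95 in feeder-free iPSC. Perlecan (Hspg2) at -0.17 (adjusted p = 0.221) and agrin (Agrn) at -0.07 (adjusted p = 0.663) did not pass. Markers of endothelium, which also makes type IV collagen, had 2 of 4 lower and 0 higher, Cdh5 at -1.16 and Tek at -0.44. The Tek call was kept in 9 of 17 alternative settings and that of Cdh5 in all 17. The 7 tested pluripotency genes had 0 higher and 1 lower, Utf1 at -0.51 (adjusted p = 0.00944).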

How the data were processed

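Each probe's signal is a bead intensity in a table of non-normalized values deposited by the authors, with 1 column per sample, per the file headers. Beside it stands a deposited detection score, a fraction headed as a p-value by the authors, which rises with the signal and was read as 1 minus the detection p; probes over 0.95 count as detected. The submitters' processing notes name limma; its version and a genome build are not given in the sources used here. Another deposited table, of normalized intensity, was not used, since its iPSC columns did not track the measured ones. Entries without a probe ID (5) were left out; they held 0.498% of the signal of feeder array 1.

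The first and second deposited feeder-free columns were identical on 100% of probes, and all 3 were averages with feeder signal added. Each single feeder-free array was recovered as the mixture column less 8% of the feeder mean, divided by 92%. Recovered arrays gave back the averaged columns to within 0.0471 signal units, and each tracked its own detection score (Spearman correlations 0.9965, 0.9968 and 0.9978).

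Background was corrected by normexp from detection p with an offset of 16 (limma 3.58.1, R 4.3.3), and arrays were quantile normalized and log2 transformed. A probe was kept if a group detected it on all its arrays, which held for 18144, and the brightest probe stood for each of 10058 genes. The comparisons used lmFit and eBayes, 1 model for all 8 measured arrays with 5 residual degrees of freedom, two-sided, with Benjamini-Hochberg adjustment over all genes and a threshold of 0.05. Mixtures were rebuilt from corrected signals, normalized with the on-feeder arrays and fitted apart (4 residual degrees of freedom). Where a group detected a probe on no array, the fold is a bound against the higher of each array's lowest detected level and the probe's own signal. Class sums and marker sums used the normalized signal with the offset of 16 per gene left in. This adds the same amount on every array, so differences between groups in percent of the feeder-cell mean are smaller than without it. Feeder shares are ratios of differences, in which the offset cancels. Feeder-specific genes had a score over 0.99 on each feeder array and were detected on no feeder-free array. They were also at least 4-fold higher in feeder cells. Tables and figures were made in Python 3.11.15 (numpy 2.4.6, pandas 2.3.3, matplotlib 3.10.9). The number of arrays limits the precision. Statistics were tested on simulated data.

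The collagen genes and all lists were chosen with earlier results of these data known. Every tested chain called in any comparison could be named, those called between the iPSC cultures always were, and of each other list up to 4 called genes in each direction were named by size; Serpinh1, P3h4, Plod1, Colgalt1, Lamc1, Hspg2 and Agrn were named after their values were seen. Same-numbered on-feeder and feeder-free arrays deviated together with correlations of 0.025, 0.164 and -0.198, so the numbers were not taken to pair the samples.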

Additional observations from a re-analysis of the deposited data

How the results depend on the processing

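Every comparison was recomputed with other scalings, without background correction, with an offset of 50, with no filter or a detection score over 0.99, with the mean of a gene's probes and without each array. A replicate block was run for the comparisons of on-feeder iPSC with feeder-free iPSC and with the mixture, a fit over the iPSC arrays alone for the first of these, and other assumed feeder shares for the mixture. Scaling by the median over probes detected on every array, and all alternatives for class sums, feeder shares and lists, were chosen after seeing the data. The 6 chains higher in on-feeder than in feeder-free iPSC were called in all settings run for that comparison. Of the 2 lower chains, 0 passed under median scaling and 1 with a detection score over 0.99, where Col27a1 was not tested. Against the mixture, chains higher numbered 1 under median scaling and 5 at a feeder share of 4%, against 3. Chains lower than the mixture numbered 0 under median scaling, 1 without background correction, with an offset of 50, with no filter on dim probes, with a detection score over 0.99 or with scaling by the median over detected probes, and 4 at shares of 12% and 16%, against 2. Leaving out each array in turn left 6 to 6 higher and 1 to 2 lower in on-feeder against feeder-free iPSC, 2 to 4 and 1 to 2 against the mixture, 7 to 7 and 11 to 13 in feeder-free iPSC against feeder cells, and 6 to 7 and 11 to 13 in on-feeder iPSC against feeder cells. The cause of these changes was not tested. With the replicate number as a block, which the correlations of the arrays' deviations do not bear out as a pairing, the counts were 6 higher and 2 lower against feeder-free iPSC and 3 and 2 against the mixture.

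Across all genes, median scaling left 309 higher and 90 lower of 10058 between the iPSC cultures, against 1009 and 851, and moved the median log2 fold change of all genes to 0.28 in feeder-free iPSC and 0.27 in on-feeder iPSC against feeder cells, so signs near 0 in those comparisons depend on scaling. There Col17a1 turned to 0.20 and 0.14, in feeder-free and on-feeder iPSC. Col6a1 against the mixture turned to -0.48 at a 12% share and -0.85 at 16%. Among listed genes, Prrx1 turned to 0.50 against feeder-free iPSC with the mean of its probes, Fbln1 to -0.13 against feeder-free iPSC and -0.14 against the mixture without feeder array 1 (its highest values without 1 array were 0.54 and 0.39), Mrc2 to -0.47 against the mixture at 16%, and Lox, Loxl1 and Medag to 0.19, 0.22 and 0.67 against the mixture at 4%. The fibrillar sum of on-feeder iPSC, 19.2% of feeder cells, was 16.1% with scaling by the median over detected probes, 20.6% with median scaling, 20.7% without normalization and 25.2% without background correction. The basement-membrane sum, 371%, was 293% with scaling by the median over detected probes, and the sum of other chains, 99.1%, was 83.6% with that scaling, 107.5% with median scaling and 107.8% without normalization. The median feeder share of the 6 chains that rose, 12.7%, was 17.8% with median scaling and 17.7% without normalization. The median signal of detected probes on an array was 2.56 to 3.20 times that of undetected probes, which limits what the dim chains (Col2a1, Col14a1, Col26a1, Col27a1, Col28a1) can show.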
